A study of Mus musculus with 9 samples.

Results

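The genes described here are 49 genes of the actin cytoskeleton and of leukocyte motility, out of 18325 genes with values in the series. They were listed by symbol and not by a rule on measured values, but earlier results of these data were known when the list was made. Each of the 49 had values in all libraries, and all 49 passed the filter on low counts among the 14108 genes tested. They fall into 8 roles: actin and its monomer pool, the Arp2/3 complex, WASP, WAVE and their partners, filament elongation, capping, severing and bundling, signalling, myosins, and membrane and adhesion linkers.

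Expression was measured by bulk RNA-seq in 9 libraries of neutrophils sorted from the lungs of female BALB/c mice, 3 libraries in each of 3 groups. Ly6ghigh and Ly6glow neutrophils were CD45+ cells sorted by their surface Ly6g from lungs at the macrometastatic stage, after 4T1-LM3 cells had been injected into the mammary fat pad. 4T1-LM3 is a lung-tropic line derived from the mouse mammary carcinoma line 4T1 by selection in vivo. The third group was Ly6ghigh neutrophils sorted by the same markers from normal lung, with no tumor injection named in the labels. No genotype change is named for any group, and the age of the mice at sampling is not in the labels. The labels do not say whether a library came from 1 mouse or from pooled mice, so p-values measure the spread among these libraries. The description field of the normal lung libraries names the Ly6ghigh group only, so their assignment rests on the title and treatment fields.

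Neutrophils move by pushing out a branched actin network at the front and contracting actin and myosin at the rear. Profilin, cofilin and the thymosins keep a pool of actin monomers, and the Arp2/3 complex branches new filaments from old ones when WASP or WAVE proteins switch it on. Capping, severing and bundling proteins set filament length and packing, and kindlin-3, talin, vinculin and filamin tie filaments to integrins. Several of these genes, among them *Was*, *Coro1a*, *Dock2*, *Dock8*, *Nckap1l*, *Hcls1* and *Fermt3*, are forms made mainly in blood cells, and loss of several of them causes immune deficiency.

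Library totals ranged from 15267177 to 17841807 estimated counts. Levels are given as CPM, which relates a gene's counts to the TMM-scaled library total, and as the deposited FPKM, which is scaled for transcript length and is the only scale on which 1 gene is compared with another here. Levels of 14 neutrophil marker genes were compared between libraries. Their summed level was 109669 to 112287 CPM in macrometastatic Ly6ghigh, 92857 to 94665 CPM in Ly6glow and 24426 to 24701 CPM in normal lung libraries. Between the macrometastatic subsets the markers split. In Ly6glow against Ly6ghigh 4 were called higher, 3 lower and 7 were not called, and their median on the log2 scale was -0.030. Mean CPM went from 17196 in Ly6ghigh to 5901 in Ly6glow for *Ngp* and from 11444 to 3052 for *Ltf*. For *Csf3r* it went up, from 3745 to 6928. Whether neutrophil content differed between these subsets was not tested. Over normal lung, the median log2 fold change of the 14 was 1.96 in macrometastatic Ly6ghigh and 1.98 in Ly6glow. For the 49 genes described here it was 0.95 and 1.12, smaller than for the neutrophil markers. Markers of lung cells outside the leukocyte gate were higher in normal lung libraries. The sums over 8 endothelial markers were 1088 to 1184 CPM there, against 158 to 161 CPM in macrometastatic Ly6ghigh and 191 to 201 CPM in Ly6glow. For 10 epithelial or tumor cell markers they were 1245 to 1398 CPM, against 122 to 128 and 127 to 135 CPM. For 10 fibroblast and smooth muscle markers they were 594 to 629.6 CPM, against 60.5 to 68.4 and 64.5 to 70.02 CPM. The 18 macrophage and monocyte markers summed to 2775 to 2830 CPM in normal lung, 2140 to 2203 CPM in macrometastatic Ly6ghigh and 1004 to 1028 CPM in Ly6glow. None of the markers in these lists was at 0 counts in a whole group. In bulk samples, fewer cells of a type and less RNA per cell cannot be told apart, and the part of these other cells in each comparison with normal lung was not tested. *Ly6g* itself had 374 ± 10.8 CPM (SD, n = 3) in macrometastatic Ly6ghigh and 394 ± 9.32 CPM in Ly6glow libraries, with a log2 fold change of 0.076 (± 0.033 SE, adjusted p = 0.0577 by edgeR), which was not called. By CPM the Ly6glow libraries thus did not have less transcript of the protein they were sorted on, while the difference was -0.16 on the log2(FPKM + 1) scale.

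These genes took a larger share of all counts in macrometastatic than in normal lung libraries. As given above, neutrophil marker sums were lower in normal lung libraries, and sums for lung cells outside the leukocyte gate were higher. The part of this difference in cell content was not tested. The 49 genes held 6.54% to 6.56% of all counts in macrometastatic Ly6ghigh libraries, 6.58% to 6.70% in Ly6glow libraries and 5.15% to 5.35% in normal lung libraries. Their summed FPKM was 32827 to 33095 in macrometastatic Ly6ghigh, 32765 to 33587 in Ly6glow and 24564 to 25477 in normal lung libraries. On both scales the macrometastatic subsets lay above each normal lung library, and on FPKM they overlapped each other. The abundant members were the same in each group: *Tmsb4x*, *Actb* and *Actg1* had the 3 highest mean FPKM of the list in all 3 groups and ranked between 4 and 12 among all genes with values. *Evl* was the least abundant member in both macrometastatic subsets, with a mean of 7.42 FPKM in Ly6ghigh and 2.21 FPKM in Ly6glow, while in normal lung it stood at 42.7 FPKM and *Elmo1* was lowest at 25.8 FPKM.

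Between macrometastatic and normal lung Ly6ghigh neutrophils, 41 of the 49 genes rose, 1 fell (*Evl*) and 7 were not called. Calls required a log2 fold change beyond 0.58 in either direction together with an adjusted p no greater than 0.05 by edgeR, and differences given without the word fold are on the log2 scale. Of all genes tested, 26.3% were called higher and 36.6% lower in this comparison, and the median log2 fold change of all genes was -0.088 against 0.95 for the 49. For 46 members each macrometastatic library lay above each normal lung library and for 2 below, against 40.2% and 45.0% of all genes tested (85.2% either way), and 48 members passed the adjusted p at any fold, as 84.6% of all genes did. Between Ly6glow and normal lung Ly6ghigh neutrophils, which share the normal lung libraries with the preceding comparison, 42 members were higher, 2 were lower (*Evl* and *Tmsb10*) and 5 were not called. The background there was 28.7% called higher and 40.8% called lower (69.5% either way), with a median of 1.12 for the 49 and -0.16 for all genes. Again 46 members lay above and 2 below without overlap, against 39.4% and 47.5% of all genes (86.8% either way), and 48 passed the adjusted p at any fold, against 86.8%. Between Ly6glow and Ly6ghigh macrometastatic neutrophils, 2 members were called higher (*Actg1* and *Zyx*) and 4 lower (*Tmsb10*, *Evl*, *Capg* and *Myo1g*), and 43 were not called. Of all genes tested, 9.29% were called higher and 15.9% lower in that comparison, so 6 of 49 is fewer than the 25.2% called in either direction. Under the fold threshold, 29 more members had a positive and 7 a negative difference at an adjusted p of at most 0.05, a p that 55.8% of all genes passed at any fold. Libraries were separate for 33 members above and 11 below, against 29.0% and 33.1% of all genes (62.1% either way).

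**Figure D1:**
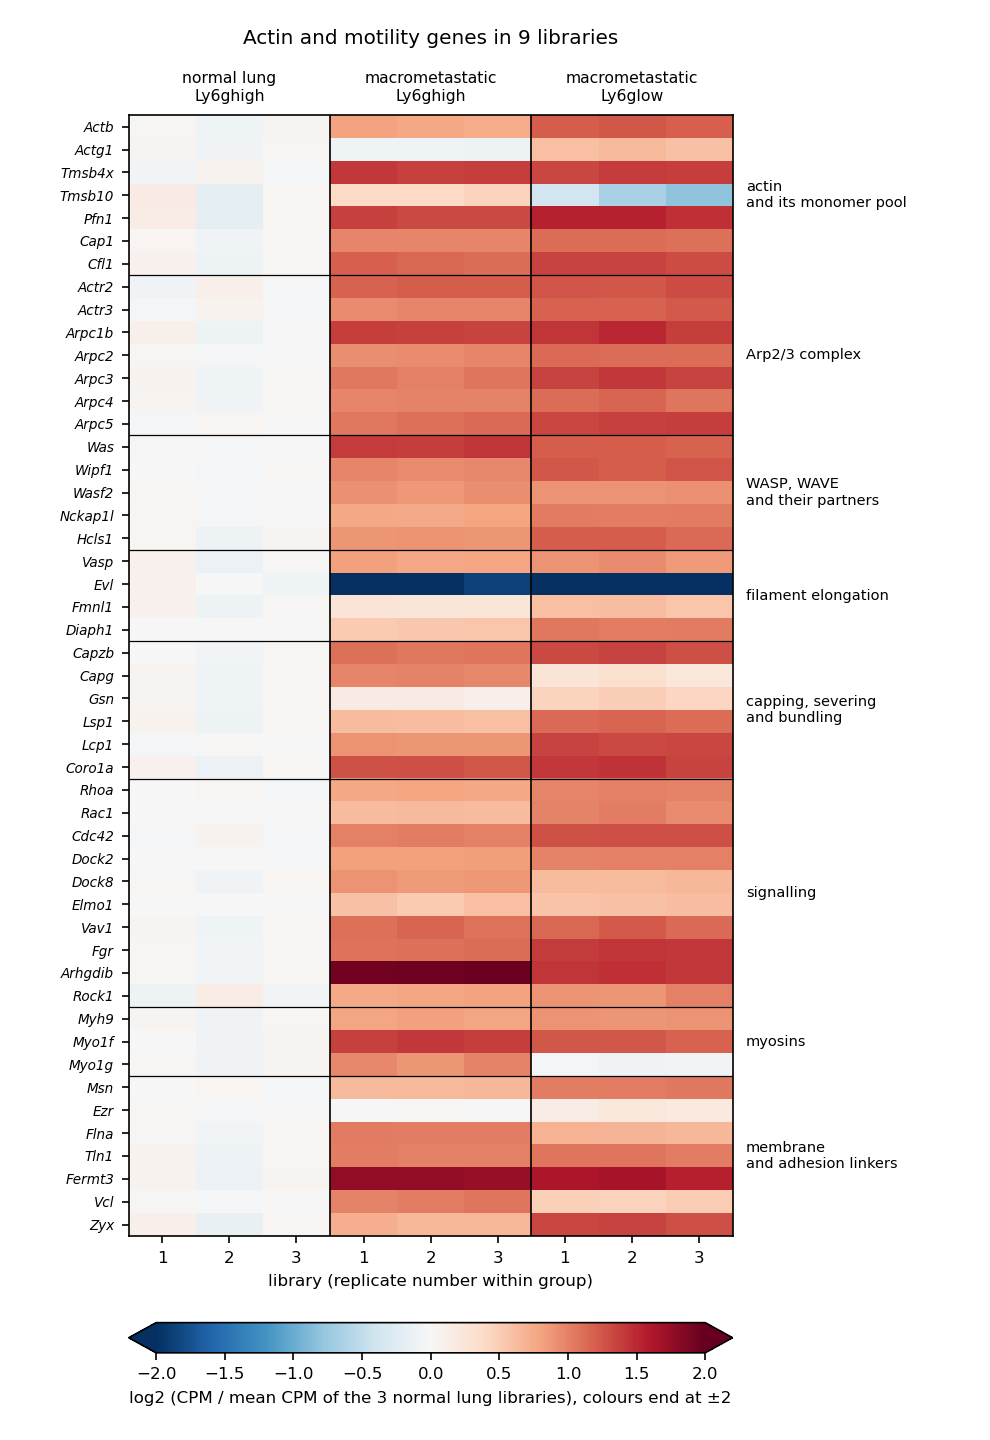
Each cell gives the log2 ratio of a gene's CPM (TMM-scaled) in 1 library to its mean CPM in the 3 normal lung libraries, with genes in rows by role and libraries in columns by group. Most rows are red in all 6 macrometastatic libraries, *Evl* is blue in all 6, and *Tmsb10* is red in Ly6ghigh and blue in Ly6glow.

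The number of calls depended on how libraries were scaled. TMM factors were 0.945 to 0.950 in macrometastatic Ly6ghigh, 0.803 to 0.807 in Ly6glow and 1.30 to 1.32 in normal lung libraries. With library size alone, an alternative chosen after seeing the data, 14 members were higher and 1 lower in macrometastatic over normal lung Ly6ghigh neutrophils, 14 higher and 3 lower in Ly6glow over normal lung, and 0 higher and 7 lower in Ly6glow over macrometastatic Ly6ghigh. Of all genes tested, that scaling called 12.3% higher (60.9% either way), 9.43% higher (66.1%) and 4.04% higher (30.5%) in these comparisons. It moved the median of all genes to -0.55, -0.86 and -0.28 in these comparisons. A change of scaling moves all genes of a comparison by nearly the same amount. The distance of the 49 from the median of all genes was therefore bound to stay, and its agreement is no test. This distance was 1.04 with TMM and 1.04 with library size in the first comparison, 1.27 and 1.27 in the second, and 0.21 and 0.21 in the third. No member called between the Ly6ghigh groups changed sign with that scaling, and of the 44 called between Ly6glow and normal lung, *Actg1*, *Fmnl1*, *Dock8*, *Elmo1* and *Flna* did.

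Actin itself split by isoform. *Actb* (NCBI Gene 11461, chr5:142903115-142907976 in GRCm38) encodes cytoplasmic beta-actin, and its level was 5099.9, 4686 and 5216 CPM in normal lung libraries, 8716, 8514 and 8393 CPM in macrometastatic Ly6ghigh libraries and 11602, 11872 and 11399 CPM in Ly6glow libraries. The 3 groups did not overlap. It rose by a log2 fold change of 0.77 (± 0.033 SE, adjusted p = 1.87e-15 by edgeR) in macrometastatic over normal lung Ly6ghigh neutrophils, and its difference of 0.44 (SE 0.033) between Ly6glow and Ly6ghigh stayed under the fold threshold. *Actg1* (NCBI Gene 11465, chr11:120345687-120348495) encodes gamma-actin, nearly identical in protein to beta-actin, and had 8624, 7888 and 8459 CPM in normal lung, 7831, 7852 and 7754 CPM in macrometastatic Ly6ghigh and 12669.8, 13053 and 12476 CPM in Ly6glow libraries. By CPM each Ly6glow library lay above all others, while by FPKM the mean was highest in normal lung, at 5856 ± 214 against 5514 ± 115 in Ly6glow and 3985 ± 24.0 in macrometastatic Ly6ghigh (SD, n = 3). Its log2 fold change was 0.70 (± 0.03 SE, adjusted p = 1.56e-14 by edgeR) in Ly6glow over Ly6ghigh, against -0.092 (SE 0.03) in macrometastatic over normal lung Ly6ghigh neutrophils. The former was 0.47 with library size alone and was then not called. In Ly6glow over normal lung it was called higher with TMM at 0.61 (SE 0.03) but was -0.088 with library size alone, and the call was lost without normal lung replicate 2. Both actin genes can share reads with each other and with processed pseudogenes, and how such reads were divided is not given in the sources used here.

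The thymosins, small proteins that hold actin monomers, also went separate ways. *Tmsb4x* (NCBI Gene 19241, on chromosome X) encodes thymosin beta-4 and had 1572, 1702 and 1601 CPM in normal lung, 4346, 4212 and 4251 CPM in macrometastatic Ly6ghigh and 4117, 4268 and 4221 CPM in Ly6glow libraries. All 6 macrometastatic libraries lay above all normal lung libraries and overlapped each other. It rose 2.63-fold in macrometastatic over normal lung Ly6ghigh neutrophils (log2 1.39, ± 0.031 SE, adjusted p = 2.1e-20 by edgeR), while Ly6glow and Ly6ghigh differed by -0.023 (± 0.03 SE, adjusted p = 0.547 by edgeR), a value whose sign turned with DESeq2 size factors. *Tmsb10* (NCBI Gene 19240, chr6:72957347-72958748) encodes thymosin beta-10 and had 63.9, 49.9 and 58.7 CPM in normal lung, 75.8, 75.3 and 78.4 CPM in macrometastatic Ly6ghigh and 43.8, 36.6 and 32.7 CPM in Ly6glow libraries. The Ly6glow libraries were the lowest and did not overlap either Ly6ghigh group. It fell 2.03-fold in Ly6glow compared with macrometastatic Ly6ghigh neutrophils (log2 -1.02, ± 0.085 SE, adjusted p = 9.02e-10 by edgeR). Against normal lung it was called lower in Ly6glow at -0.61 (SE 0.085), a call that was lost without Ly6glow replicate 3 (-0.51) or normal lung replicate 1 (-0.54), and its 0.41 in macrometastatic Ly6ghigh was not called and turned to -0.053 with library size alone.

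The other monomer-pool genes moved together against normal lung. *Pfn1* (profilin-1, which loads monomers onto growing ends) had 560.2, 446 and 524 CPM in normal lung, 1312, 1262 and 1269.6 CPM in macrometastatic Ly6ghigh and 1481, 1476 and 1399 CPM in Ly6glow libraries. Its log2 fold change over normal lung was 1.33 (SE 0.053) in Ly6ghigh and 1.51 (± 0.053 SE, adjusted p = 4.39e-17 by edgeR) in Ly6glow. *Cfl1* (cofilin-1, which cuts old filaments) rose by 1.16 and *Cap1* (which recycles monomers with cofilin) by 0.97 in Ly6ghigh. None of these 3 genes was called between the macrometastatic subsets. *Pfn1*, *Cfl1* and *Tmsb4x* kept their calls over normal lung with library size alone, and *Actb* and *Cap1* lost theirs.

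**Figure D2:**
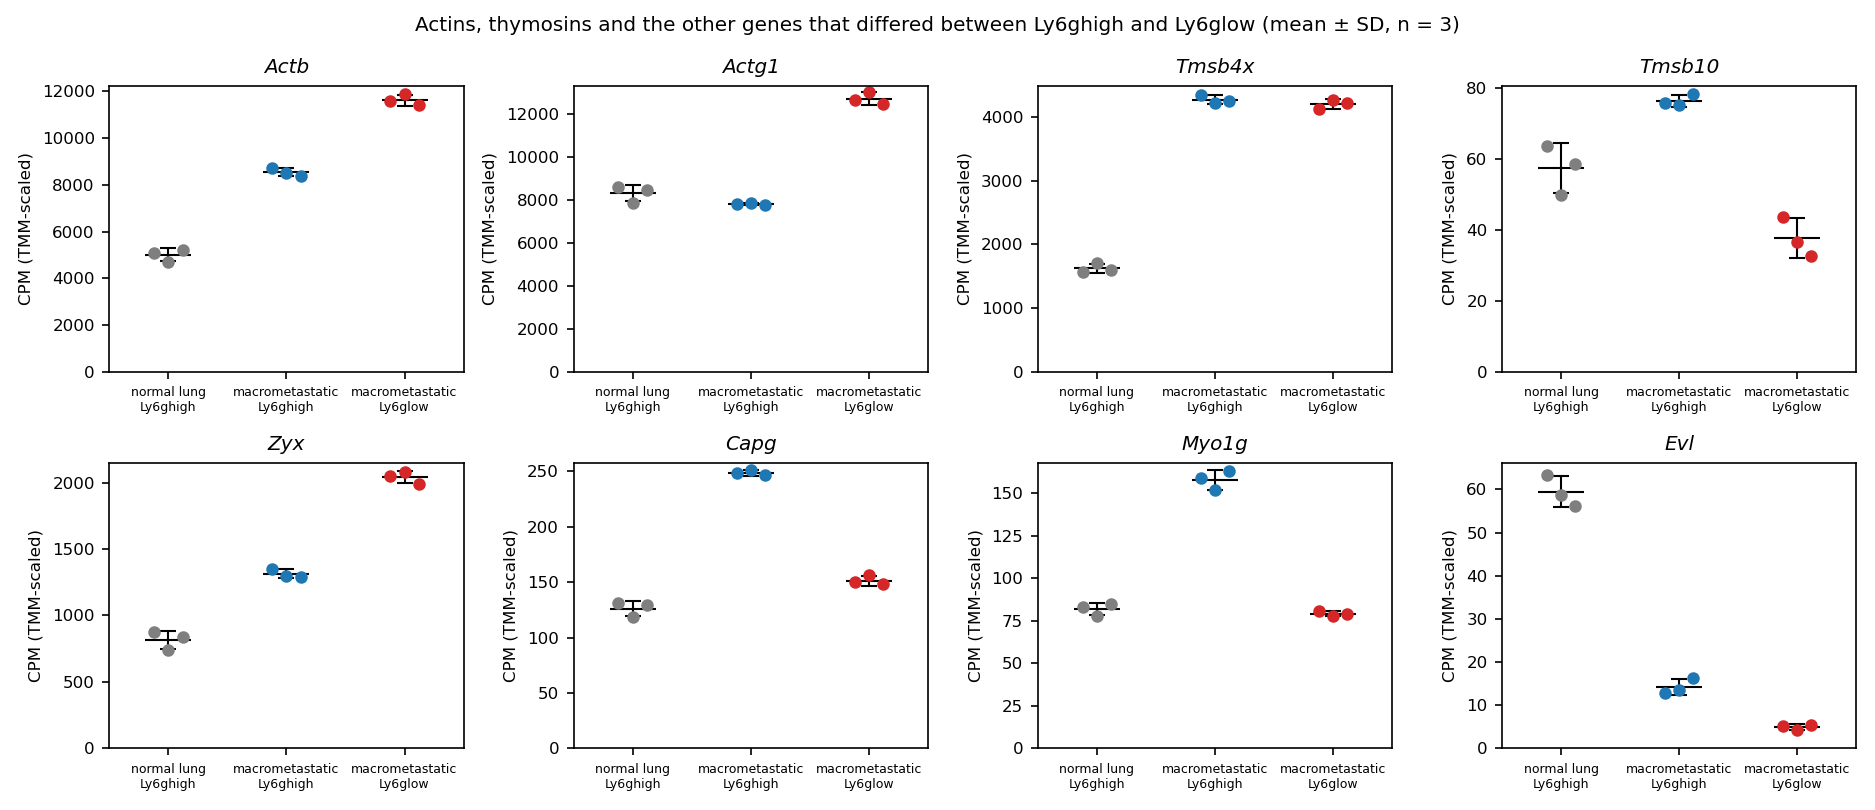
CPM (TMM-scaled) in each library is shown as points, with the group mean and SD as bars (n = 3), for both actins, both thymosins and the other 4 genes called between Ly6glow and Ly6ghigh macrometastatic neutrophils. By CPM *Actg1* is highest in Ly6glow (by FPKM in normal lung), *Capg* and *Myo1g* are high in macrometastatic Ly6ghigh alone, and *Evl* falls from normal lung through Ly6ghigh to Ly6glow.

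Because *Actg1*, *Vcl* and other actin genes are textbook targets of serum response factor, which reads the CArG box, the promoters were searched for this motif, for TGACTCA (bound by AP-1) and for GAGGAAGT (bound by ETS factors such as PU.1), on both strands of the window from 250 bases before to 50 bases after each start in RefSeq's GRCm38.p6. Of the 49 genes, 43 had a window. The CArG box was found in 3 of them, *Actg1*, *Vcl* and *Arpc4* (6.98%), against 1.81% of 27025 genes. TGACTCA was found in 3, *Zyx*, *Hcls1* and *Ezr* (6.98%, against 5.95%), and GAGGAAGT in 4, *Arpc1b*, *Fmnl1*, *Elmo1* and *Vav1* (9.30%, against 3.69%). No gene of the list held more than 1 of the motifs. The 3 CArG boxes and the TGACTCA of *Zyx*, one of the genes called higher in Ly6glow, are shown 5′ to 3′ on the strand of the gene, with the motif in capitals, so that their spacing from the start can be read. They lie 90 to 81 bases before the start in *Actg1* (chr11:120348551-120348610, minus strand), 227 to 218 in *Vcl* (chr14:20929148-20929205, plus strand), 250 to 241 in *Arpc4* (chr6:113377863-113377897, plus strand) and 121 to 115 in *Zyx* (chr6:42349682-42349738, plus strand). The motif of *Zyx* matched on the opposite strand, so its capitals read TGAGTCA. The start is that of the promoter table, which lies 15 bases inside the outer start of the gene for *Vcl* and 317 bases inside it for *Zyx*, so the stretch shown for *Zyx* lies within the gene as given here.
Actg1: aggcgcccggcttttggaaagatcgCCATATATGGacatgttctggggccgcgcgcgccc
Vcl: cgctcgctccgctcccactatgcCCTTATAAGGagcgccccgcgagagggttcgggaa
Arpc4: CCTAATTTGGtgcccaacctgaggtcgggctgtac
Zyx: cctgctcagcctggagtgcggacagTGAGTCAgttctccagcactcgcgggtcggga
The 3 genes with a CArG box did not share a pattern in Ly6glow over Ly6ghigh, where the log2 fold change was 0.70 for *Actg1*, -0.55 for *Vcl* and 0.13 for *Arpc4*. A match describes the letters of the window and says nothing of binding in these cells.

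All 7 subunits of the Arp2/3 complex, the machine that branches filaments, rose in macrometastatic over normal lung Ly6ghigh neutrophils, within a narrow band from 0.95 for *Arpc2* to 1.37 for *Arpc1b* on the log2 scale (edgeR, SE 0.029 to 0.043). *Arpc1b*, the blood-cell form of the p41 subunit, had 493, 427 and 461 CPM in normal lung, 1203, 1186 and 1169.6 CPM in macrometastatic Ly6ghigh and 1239, 1313 and 1193 CPM in Ly6glow libraries. Its libraries from the macrometastatic subsets overlapped, and all 6 lay above normal lung. *Arpc3* had 254, 227 and 244 CPM in normal lung, 499, 484 and 506 CPM in macrometastatic Ly6ghigh and 612, 645 and 615 CPM in Ly6glow, the largest difference between the macrometastatic subsets among the subunits, at 0.33 (SE 0.038), and not called. The complex summed to 3638 to 3715 FPKM in macrometastatic Ly6ghigh, 3534 to 3606 FPKM in Ly6glow and 2351 to 2387 FPKM in normal lung libraries. With library size alone, 3 of the 7 subunits in macrometastatic Ly6ghigh (*Actr2*, *Arpc1b* and *Arpc5*) and 3 in Ly6glow (*Arpc1b*, *Arpc3* and *Arpc5*) stayed called over normal lung.

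The activators of Arp2/3 rose with it. All 5 genes of this role were called higher in both comparisons with normal lung, and none was called between the macrometastatic subsets. With library size alone, 1 of the 5 (*Was*) kept its call in Ly6ghigh over normal lung and 0 of 5 in Ly6glow. *Was*, the Wiskott-Aldrich syndrome protein, had 64.9, 62.9 and 64.1 CPM in normal lung, 169, 166 and 172 CPM in macrometastatic Ly6ghigh and 148, 148 and 144 CPM in Ly6glow libraries, with no overlap between any 2 groups. Its rise in macrometastatic over normal lung Ly6ghigh neutrophils was 2.64-fold (log2 1.40, ± 0.037 SE, adjusted p = 4.2e-19 by edgeR), the largest of the role. *Wipf1*, which holds WASP in its inactive and stable form, rose by 0.96, and *Wasf2* (WAVE2), *Nckap1l* (HEM1, the blood-cell subunit of the WAVE complex) and *Hcls1* (the blood-cell cortactin) by 0.90, 0.78 and 0.89. *Was* was the only one of the 5 with lower Ly6glow than Ly6ghigh macrometastatic libraries without overlap, at -0.20 (SE 0.036), while *Wasf2* differed by -0.0089.

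Among genes that extend filaments, *Evl* and *Vasp* went opposite ways although they belong to 1 family of Ena/VASP proteins. *Evl* (NCBI Gene 14026, chr12:108554681-108688516) had 63.3, 58.8 and 56.2 CPM in normal lung, 12.9, 13.6 and 16.2 CPM in macrometastatic Ly6ghigh and 5.20, 4.21 and 5.41 CPM in Ly6glow libraries, and the 3 groups did not overlap. It fell 4.18-fold in macrometastatic compared with normal lung Ly6ghigh neutrophils (log2 -2.06, ± 0.074 SE, adjusted p = 8.87e-17 by edgeR) and a further 2.88-fold in Ly6glow compared with Ly6ghigh (log2 -1.52, ± 0.13 SE, adjusted p = 7.94e-10 by edgeR). *Evl* is also made by lymphocytes and endothelial cells. In macrometastatic over normal lung Ly6ghigh neutrophils, 8 of 8 endothelial and 8 of 9 T cell markers were called lower. The other T cell marker, *Cd3d*, was not called and lay above normal lung without overlap, at 24.6 against 17.2 CPM. Of 7 B cell markers 3 were called higher and 2 lower. The 9 T cell markers summed to 92.9 to 98.4 CPM in normal lung, 55.02 to 56.1 CPM in macrometastatic Ly6ghigh and 41.7 to 42.3 CPM in Ly6glow, and the endothelial sums are given above. Between Ly6glow and Ly6ghigh, 7 of 7 B cell, 4 of 5 NK cell, 1 of 9 T cell and 0 of 8 endothelial markers tested were called lower, and the endothelial sum was higher in Ly6glow. Their part in the fall of *Evl* was not tested. *Vasp*, in contrast, had 729.5, 638 and 700.3 CPM in normal lung and 1221, 1182 and 1194 CPM in macrometastatic Ly6ghigh libraries, a rise of 0.80 (SE 0.039) that was not called with library size alone, whereas the fall of *Evl* was. The formins *Fmnl1* and *Diaph1*, which grow straight filaments, differed by 0.25 and 0.54 in the same comparison and were not called, and by 0.34 and 0.50 between Ly6glow and Ly6ghigh, also not called. In Ly6glow over normal lung both were called higher, *Diaph1* at 1.04 and *Fmnl1* at 0.59, the latter just past the threshold, lost without normal lung replicate 2 and turned in sign by library size alone.

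Of the 6 genes that cap, sever or bundle filaments, 5 rose in macrometastatic over normal lung Ly6ghigh neutrophils and *Gsn* (gelsolin, a calcium-driven severing protein) was not called at 0.15. Of these 5, *Capzb* and *Coro1a* kept their call with library size alone. *Capg*, a capping protein of the gelsolin family known from macrophages and neutrophils, had 131, 118 and 129 CPM in normal lung, 248, 251 and 246 CPM in macrometastatic Ly6ghigh and 149.9, 157 and 148 CPM in Ly6glow libraries. It was thus highest in macrometastatic Ly6ghigh, and it was called lower at a log2 fold change of -0.72 (± 0.041 SE, adjusted p = 1.73e-12 by edgeR) in Ly6glow compared with Ly6ghigh. Of 18 macrophage and monocyte markers, 9 were also called lower in Ly6glow and 0 higher. In macrometastatic over normal lung Ly6ghigh neutrophils, where *Capg* rose by 0.98, 13 of the 18 were called lower and 1 higher. *Chil3* carried most of the summed level of the 18 in macrometastatic Ly6ghigh, at 1274 of 2140 to 2203 CPM. In Ly6glow it held a smaller part, at 277 of 1004 to 1028 CPM. The other 17 summed to 886 to 903 CPM in Ly6ghigh and 728 to 754 CPM in Ly6glow, again a sum chosen after seeing the data. The part of these cells in the difference was not tested. *Lcp1* (L-plastin, the leukocyte bundling protein) had 2780.0, 2848 and 2823 CPM in normal lung, 5236, 5212 and 5217 CPM in macrometastatic Ly6ghigh and 7168, 7042 and 7118 CPM in Ly6glow libraries. Its differences of 0.89 (SE 0.025) and, between the macrometastatic subsets, 0.45 (SE 0.025) exceeded the spread of the libraries, and only the former was called. *Coro1a* (coronin-1A, which works with Arp2/3 and cofilin) rose by 1.27, *Capzb* (a subunit of capping protein) by 1.08 and *Lsp1* by 0.62, the last of these not called without normal lung replicate 2.

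Among the signalling genes, *Elmo1* was just under the threshold at 0.57 in macrometastatic over normal lung Ly6ghigh neutrophils and was not called. The largest rise of the whole list was that of *Arhgdib* (NCBI Gene 11857), which had 427, 405 and 432 CPM in normal lung, 1600.4, 1627 and 1656 CPM in macrometastatic Ly6ghigh and 1135, 1161 and 1118 CPM in Ly6glow libraries. The groups did not overlap, and macrometastatic Ly6ghigh was the highest. The rise was 3.86-fold (log2 1.95, ± 0.032 SE, adjusted p = 2.05e-22 by edgeR), and Ly6glow lay -0.52 (SE 0.031) from Ly6ghigh, under the fold threshold with TMM and called lower with library size alone. *Fgr*, a Src-family kinase of myeloid cells, went the other way between the subsets, with 369, 344 and 364 CPM in normal lung, 764, 770.3 and 777 CPM in macrometastatic Ly6ghigh and 946, 967 and 956 CPM in Ly6glow libraries. Its log2 fold change over normal lung was 1.10 in Ly6ghigh and 1.41 (± 0.032 SE, adjusted p = 2.1e-20 by edgeR) in Ly6glow, and the difference of 0.31 between them was not called. *Cdc42* rose by 1.01, *Rhoa* by 0.78 and *Rac1* by 0.64. The exchange factors *Vav1*, *Dock2* and *Dock8*, which load Rac or Cdc42 with GTP, rose by 1.12, 0.83 and 0.87. Of these 3, *Dock8* had lower Ly6glow than Ly6ghigh libraries without overlap, at -0.23 (SE 0.034, not called), and its call in Ly6glow over normal lung turned in sign with library size alone.

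The 3 myosins rose in macrometastatic over normal lung Ly6ghigh neutrophils, of which 1 (*Myo1f*) kept its call with library size alone. *Myo1f*, a single-headed myosin of myeloid cells, had 385, 364 and 397 CPM in normal lung, 980.4, 1013 and 995 CPM in macrometastatic Ly6ghigh and 900.0, 899 and 869 CPM in Ly6glow libraries, and its rise was 2.61-fold in Ly6ghigh (log2 1.38, ± 0.034 SE, adjusted p = 9.62e-20 by edgeR). *Myo1g* (NCBI Gene 246177, chr11:6506548-6520960), a related myosin of lymphocytes and other blood cells, had 83.3, 78.0 and 84.8 CPM in normal lung, 159, 152 and 163 CPM in macrometastatic Ly6ghigh and 80.6, 78.0 and 79.2 CPM in Ly6glow libraries. The Ly6glow and normal lung libraries overlapped and the macrometastatic Ly6ghigh libraries stood above both. *Myo1g* fell 1.99-fold in Ly6glow compared with Ly6ghigh (log2 -0.996, ± 0.044 SE, adjusted p = 2.49e-14 by edgeR). All 7 B cell markers were called lower in Ly6glow as well, with sums of 67.3 to 70.2 CPM in macrometastatic Ly6ghigh, 37.04 to 41.2 CPM in Ly6glow and 79.2 to 85.8 CPM in normal lung. *Cd22* alone made normal lung the highest, with a mean of 49.7 CPM there. The other 6 B cell markers, a sum chosen after seeing the data, came to 49.2 to 50.4, 29.6 to 31.6 and 31.9 to 33.8 CPM in the same order. In macrometastatic over normal lung Ly6ghigh neutrophils, 3 of the 7 B cell markers were called higher and 2 lower. The sums over 5 eosinophil markers were 79.1 to 85.2 CPM in macrometastatic Ly6ghigh, 35.7 to 37.4 CPM in Ly6glow and 40.3 to 43.0 CPM in normal lung. For 6 basophil and mast cell markers they were 40.2 to 42.2, 22.5 to 26.9 and 25.6 to 28.1 CPM in the same order. The T cell sum given above was highest in normal lung, as were the NK cell and dendritic cell sums. The part of these cells in the fall of *Myo1g* was not tested. *Myh9*, the heavy chain of non-muscle myosin IIA that contracts the rear of the cell, rose by 0.80 (SE 0.03) in Ly6ghigh over normal lung and differed by 0.095 between the macrometastatic subsets, which was not called.

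Of the 7 linkers, 6 rose in macrometastatic over normal lung Ly6ghigh neutrophils, of which 1 (*Fermt3*) kept its call with library size alone. *Fermt3* (NCBI Gene 108101), which encodes kindlin-3 and is needed to activate leukocyte integrins, had 103, 90.1 and 103 CPM in normal lung, 335, 334 and 329.7 CPM in macrometastatic Ly6ghigh and 302, 307 and 287 CPM in Ly6glow libraries. It rose 3.38-fold in Ly6ghigh (log2 1.76, ± 0.044 SE, adjusted p = 1.35e-19 by edgeR) and 3.03-fold in Ly6glow (log2 1.60, SE 0.044) over normal lung, the second and the first in size of all 49 genes. Its partner in integrin activation, *Tln1* (talin-1), rose by 1.01 in Ly6ghigh. *Zyx* (NCBI Gene 22793, chr6:42349511-42360213), which encodes zyxin, a protein of focal adhesions and strained filaments, had 873, 738 and 836 CPM in normal lung, 1351, 1295 and 1292 CPM in macrometastatic Ly6ghigh and 2047, 2078 and 1989 CPM in Ly6glow libraries. The groups did not overlap, and Ly6glow was 1.55-fold above Ly6ghigh (log2 0.63, ± 0.043 SE, adjusted p = 3.33e-11 by edgeR), a call not made with library size alone. *Vcl* (vinculin) and *Flna* (filamin A) lay on the other side, with log2 differences of -0.55 (SE 0.034) and -0.36 (SE 0.028) between Ly6glow and Ly6ghigh, under the threshold with TMM and called lower with library size alone. *Vcl* had 168, 162 and 166 CPM in normal lung, 329.8, 336 and 346 CPM in macrometastatic Ly6ghigh and 230.3, 228 and 234 CPM in Ly6glow libraries. *Msn* (moesin) rose by 0.65 in Ly6ghigh over normal lung, while *Ezr* (ezrin, its relative) was at 0.014 (± 0.032 SE, adjusted p = 0.702 by edgeR) with overlapping libraries.

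**Figure D3:**
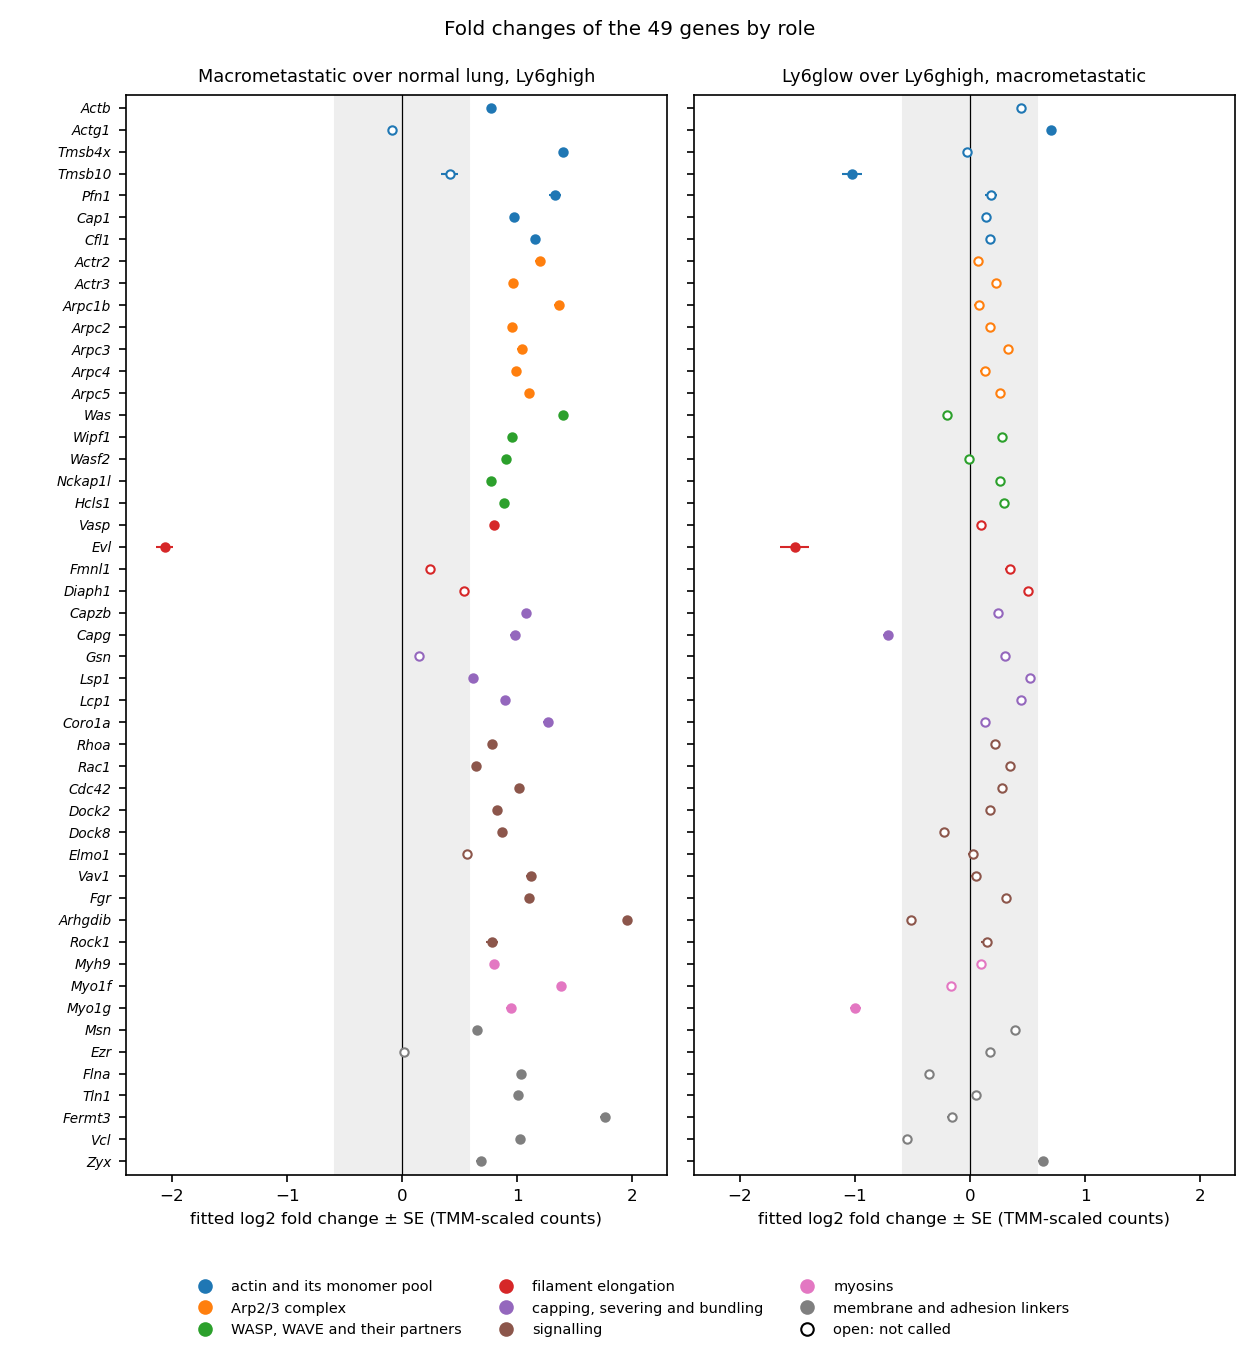
Points give the fitted log2 fold change (TMM-scaled counts) and bars its SE for each of the 49 genes, coloured by role, in macrometastatic over normal lung Ly6ghigh neutrophils (left) and in Ly6glow over Ly6ghigh macrometastatic neutrophils (right). The grey band spans the fold threshold of 0.58, open points are genes not called, and most genes lie right of the band on the left panel and inside it on the right panel.

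Ratios of related genes within a library do not depend on how libraries are scaled. Of 6 pairs fixed for this purpose, 3 pair members with each other and 3 pair a member with a close relative outside the list, which gave 18 comparisons of groups. With 3 libraries a group, the smallest two-sided p that exact permutation can give is 0.1, so none of them can pass 0.05 and they are given by size and overlap. The FPKM ratio of *Actb* to *Actg1* was 0.588, 0.590 and 0.613 in normal lung, 1.11, 1.08 and 1.08 in macrometastatic Ly6ghigh and 0.910, 0.904 and 0.908 in Ly6glow libraries. Gamma-actin transcripts thus outnumbered beta-actin per length in normal lung and Ly6glow libraries and were fewer in macrometastatic Ly6ghigh libraries, and the ratio was 1.82-fold higher in macrometastatic than in normal lung Ly6ghigh neutrophils (exact p = 0.1). The ratio of *Tmsb4x* to *Tmsb10* was 20.4, 28.3 and 22.6 in normal lung, 47.6, 46.5 and 45.1 in macrometastatic Ly6ghigh and 78.2, 97.2 and 107 in Ly6glow libraries, 1.97-fold higher in the former step and 2.01-fold in the latter, with no overlap (exact p = 0.1 for each).

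The ratio of *Msn* to *Ezr* had means of 2.58 ± 0.132 (SD, n = 3) in normal lung, 4.01 ± 0.0310 in macrometastatic Ly6ghigh and 4.65 ± 0.121 in Ly6glow libraries. *Arpc1b* over *Arpc1a*, the widely expressed form of the same subunit, had means of 10.9 ± 0.470, 16.9 ± 0.433 and 16.8 ± 0.223 in the same order, and *Arpc5* over *Arpc5l* had 26.6 ± 0.746, 44.5 ± 0.182 and 46.5 ± 3.90. In both Arp2/3 pairs the macrometastatic subsets overlapped (exact p = 0.8 and 0.4) and lay above normal lung. *Rac1* over *Rac2*, the Rac of blood cells, went down, with means of 0.625 ± 0.0468 in normal lung, 0.290 ± 0.00551 in macrometastatic Ly6ghigh and 0.336 ± 0.000774 in Ly6glow libraries and no overlap. *Rac2* was thus the more abundant form per length in each group, and the markers of lung cells outside the leukocyte gate, whose sums are given above, were highest where the blood-cell form had its smallest share. Their part in this ratio was not tested.

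**Figure D4:**
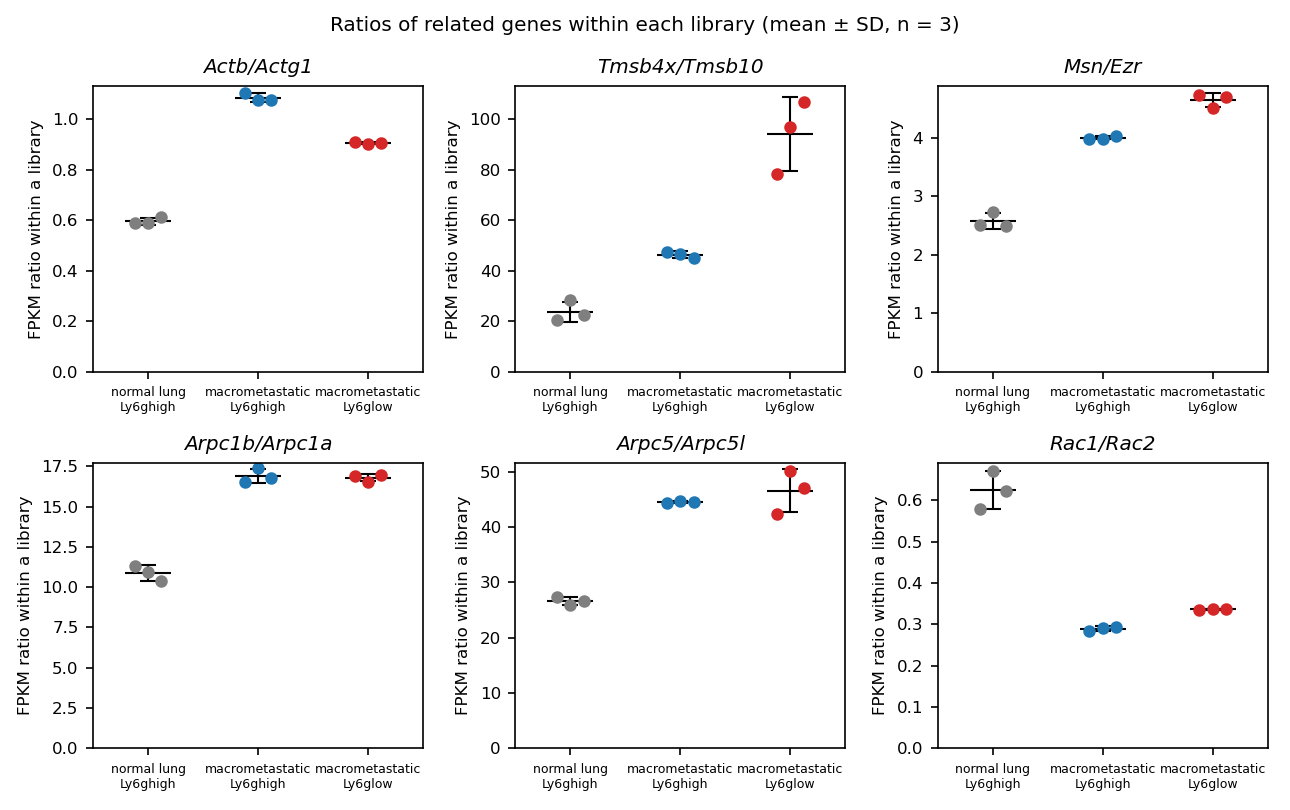
Points give the FPKM ratio of 2 related genes within each library, and bars the group mean and SD (n = 3), on linear axes that start at 0. The 3 groups separate for *Actb*/*Actg1*, *Tmsb4x*/*Tmsb10*, *Msn*/*Ezr* and *Rac1*/*Rac2*, and the macrometastatic subsets overlap for both Arp2/3 pairs.

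The same contrast was drawn over 39 pairs of a member and a related gene outside the list, a set put together after the values had been seen and given here as a description. Of these, 36 pairs, from 28 members, had both genes tested. In macrometastatic over normal lung Ly6ghigh neutrophils, 17 of the related genes were called lower and 6 higher, where 36.6% of all genes tested were called lower and 26.3% higher. In 14 pairs the member rose while its relative fell, in 5 both rose, and in 11 the member rose and the relative was not called. *Fermt2* (kindlin-2, the form of adherent tissue cells) had 58.1, 61.7 and 58.5 CPM in normal lung, 7.94, 6.49 and 6.87 CPM in macrometastatic Ly6ghigh and 7.80, 7.22 and 9.15 CPM in Ly6glow libraries, a log2 fold change of -3.07 in Ly6ghigh against 1.76 for *Fermt3*. *Nckap1* had 33.5, 38.9 and 35.8 CPM in normal lung and 5.35, 4.78 and 5.32 CPM in macrometastatic Ly6ghigh libraries (-2.81, against 0.78 for *Nckap1l*). *Myh10* (non-muscle myosin IIB) had 109, 105 and 106 CPM in normal lung and 17.7, 16.1 and 18.4 CPM in macrometastatic Ly6ghigh libraries (-2.62, against 0.80 for *Myh9*). *Cttn* (cortactin) and *Pls3* (T-plastin), the tissue relatives of *Hcls1* and *Lcp1*, had log2 fold changes of -2.60 and -2.22 and were called lower. Kindlin-2, T-plastin and cortactin are known from endothelial, epithelial or stromal cells, and the markers of these cells were called lower too: 8 of 8 endothelial, 10 of 10 epithelial or tumor cell and 10 of 10 fibroblast and smooth muscle markers. Their part in the fall of these genes was not tested. With library size alone, the 14 relatives remained called lower, both genes of each pair kept their sign, and 4 of the 14 members were still called higher. *Rac2* (1.75), *Vav3* (1.18), *Coro1b* (0.86), *Arpc1a* (0.73) and *Rhob* (0.72) were the relatives that rose with their member, and *Diaph2* (0.72) rose while *Diaph1* was not called.

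**Figure D5:**
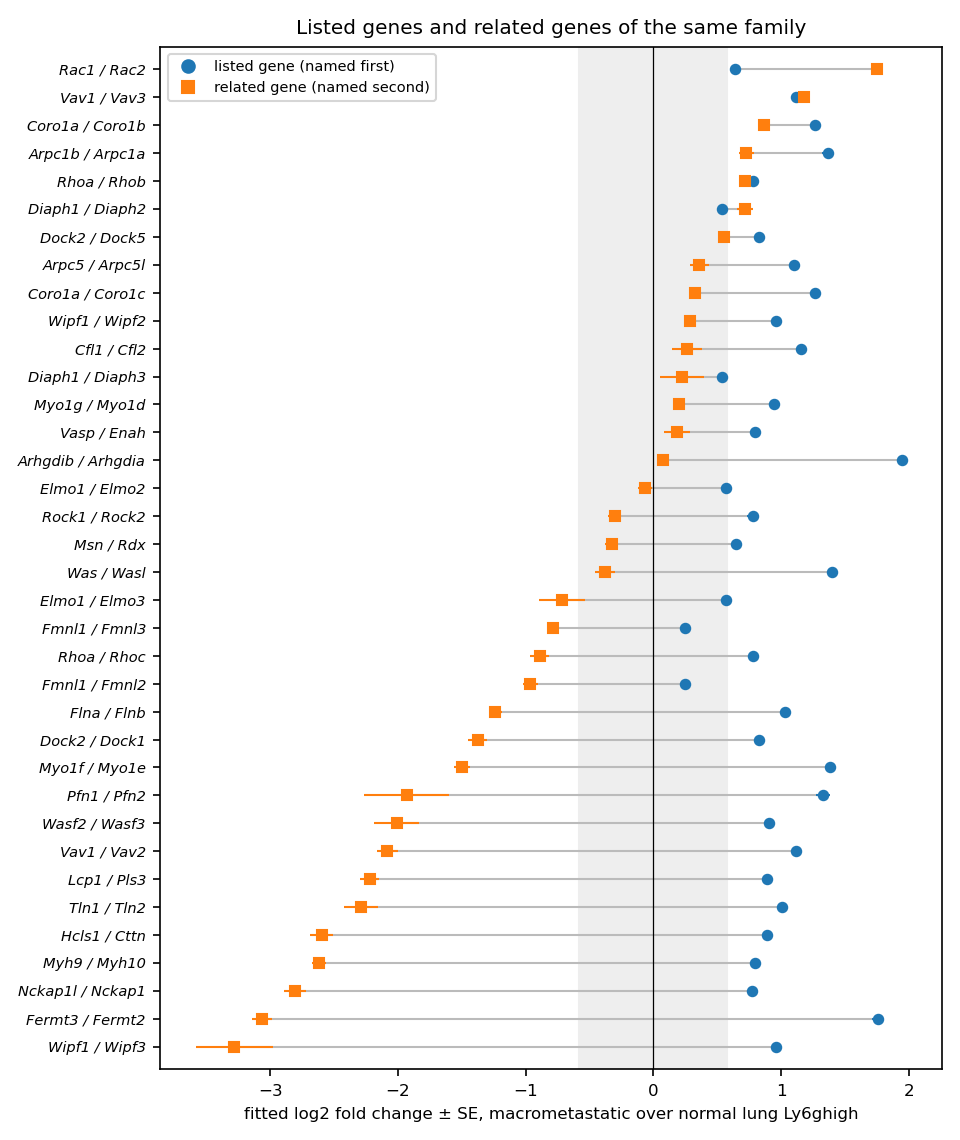
Each row gives 1 pair of a listed gene (circle) and a related gene outside the list (square), with the fitted log2 fold change in macrometastatic over normal lung Ly6ghigh neutrophils and its SE as a bar, and the grey band spans the fold threshold of 0.58. The listed genes lie between 0.25 and 1.95, while the related genes spread from -3.28 to 1.75.

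Other genes of the same roles were taken from a list of 129 written for this purpose, of which 126 were tested. In macrometastatic over normal lung Ly6ghigh neutrophils, 64 were called higher (50.8%, against 26.3% of all genes) and 34 lower (27.0%, against 36.6%), with a median of 0.62. In Ly6glow over normal lung 64 were higher (50.8%, against 28.7%) and 31 lower (24.6%, against 40.8%), with a median of 0.60. Between Ly6glow and Ly6ghigh macrometastatic neutrophils 10 were higher (7.94%) and 13 lower (10.3%), no larger shares than the 9.29% and 15.9% of all genes (median 0.066). The largest rises in macrometastatic over normal lung Ly6ghigh neutrophils, among genes with at least 10 CPM, were those of *Rhou* (2.55, from 18.7 ± 0.352 to 109 ± 1.64 CPM), *Twf2* (twinfilin-2, which binds monomers and filament ends, 2.03) and *Rassf5* (RAPL, a link from Rap1 to integrins, 1.82), and the largest falls were those of *Fermt2*, *Nckap1* and *Parvb* (-2.72). In Ly6glow over macrometastatic Ly6ghigh neutrophils, *Tpm4* (a tropomyosin that coats filaments) rose by 1.11 (± 0.03 SE, adjusted p = 1.09e-17 by edgeR), from 536, 558 and 554 CPM to 1177, 1190.0 and 1187 CPM. *Marcks* and *Marcksl1*, which link actin to the plasma membrane, rose by 1.07 and 0.93. The largest falls there were *Rhou* (-0.98) and the exchange factors *Tiam1* (-0.98) and *Dock10* (-0.97). In Ly6glow over normal lung, *Marcks* (2.17), *Selplg* (the P-selectin ligand, 2.10) and *Rassf5* (1.99) rose most, and *Fscn1* (-3.31), *Vav2* (-3.22) and *Parvb* (-3.16) fell most.

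Within groups the 49 genes were measured tightly. The median coefficient of variation of their CPM over 3 libraries was 1.31% in macrometastatic Ly6ghigh, 1.84% in Ly6glow and 4.22% in normal lung, and the widest were *Evl* at 12.4% in the first and *Tmsb10* at 14.9% and 12.3% in the others. Normal lung replicate 2 lay lower than its partners across the list, with a median log2 deviation of -0.061 from its group mean, and the calls that it decides are named above with their genes. By CPM, 35 of the 49 genes were ordered Ly6glow, then macrometastatic Ly6ghigh, then normal lung, and 10 were highest in macrometastatic Ly6ghigh and lowest in normal lung. By FPKM the first of these orders held for 15 genes and the second for 22. Which macrometastatic subset was the higher thus turned with the scale for many genes, while normal lung was lowest for 45 of the 49 by CPM and 37 by FPKM.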

How the data were processed

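RNA of 9 sorted neutrophil libraries was sequenced, 3 in each of 3 groups, by poly(A) selection with strand-marked libraries per the labels. Groups were taken from the labels. The authors deposited estimated counts per gene, which need not be whole (37.9% were), and FPKM values, which are scaled to library size and transcript length. The submitters' processing notes name the mm10 build, and the aligner and the counting tool are not given in the sources used here. Reads shared by near-identical genes had been divided before deposit, so the values of genes with close copies, such as both actins, are uncertain in this respect.

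Of 22064 genes listed, 3739 had no values. Estimated counts of the other 18325 were rounded to whole numbers, filtered with filterByExpr by group to 14108 genes, scaled by TMM and fitted over all 9 libraries with edgeR's quasi-likelihood test (edgeR 4.0.16, R 4.3.3). Adjusted p-values are Benjamini-Hochberg values over all 14108 genes, and calls required a log2 fold change beyond 0.58 in either direction with an adjusted p no greater than 0.05. Standard errors were derived from the fold change and its F statistic. On simulated counts with known changes, 100% of genes changed 2-fold or 4-fold were recovered. Only 100 genes of each size were changed there, above a count minimum and as often up as down, in otherwise equal groups. In the data, 62.9% and 69.5% of genes were called against normal lung. The simulation therefore cannot show whether calls hold under the scaling that such unlike groups need. Library totals ranged from 15267177 to 17841807 counts. No pair of libraries was identical and each was counted as 1 replicate, which does not show that they came from different mice. Chi-square over its degrees of freedom is near 1 where 2 libraries differ by counting noise alone. Within groups it was 1.41 to 1.52 in macrometastatic Ly6ghigh, 1.52 to 2.50 in Ly6glow and 1.49 to 5.30 in normal lung.

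The members and gene lists were chosen with earlier results of these data known. Values in each library are given by rule for both actins, both thymosins and, in each comparison, the 5 members with the largest called increase and decrease. For *Arpc3*, *Lcp1*, *Vasp*, *Vcl* and the related genes outside the list they were added after the values had been seen, as was the set of related pairs. Of the other genes of the same roles, the 3 largest called changes in each direction with at least 10 CPM in the higher group are named. Gene positions and promoter sequences came from RefSeq tables of GRCm38.p6, the assembly of mm10, and 43 of the 49 genes matched a promoter. Alternatives were DESeq2 1.42.0 (size factors and Wald test), upper-quartile scaling, other filters and fold thresholds, limma 3.58.1 on log2 FPKM, fits of the 6 libraries compared, the replicate number as a block, leaving out each replicate, and library size alone, the last chosen after seeing the data. The result for the signalling genes as a group is not reported here.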

Additional observations from a re-analysis of the deposited data

How the results depend on the processing

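With limma on log2(FPKM + 1), 14 members were called higher and 1 lower in macrometastatic over normal lung Ly6ghigh neutrophils (median 0.49). In Ly6glow over normal lung 14 were higher and 3 lower (median 0.41). In Ly6glow over Ly6ghigh 0 were higher and 7 lower, and the median turned to -0.067. Of all genes, this fit called 7.84%, 6.16% and 1.73% higher in these comparisons (36.0%, 41.5% and 12.2% either way). A filter of FPKM of at least 1 in 3 libraries left the counts and medians of members unchanged. It called 12.1%, 9.48% and 2.71% of all genes higher (51.4%, 58.9% and 18.8% either way). With a pseudocount of 0.1 the counts were the same and the medians were 0.49, 0.42 and -0.068. Of all genes, 9.97%, 7.65% and 2.84% were then called higher (51.6%, 56.3% and 22.5% either way). With library size alone the counts were again 14, 14, 0 and 7, and the medians 0.49, 0.42 and -0.066. In these fits *Tmsb10* turned to -0.042 (FPKM) or -0.053 (library size) between the Ly6ghigh groups, and *Actg1* to -0.086 or -0.088 in Ly6glow over normal lung. With DESeq2 size factors or its Wald test, the medians were 0.24 in Ly6glow over Ly6ghigh and 1.21 in Ly6glow over normal lung. In the latter 1 member was called lower, where 70.6% (size factors) and 69.4% (Wald test) of all genes were called either way. With either, *Tmsb4x* turned to 0.043 in Ly6glow over Ly6ghigh. Upper-quartile scaling gave medians of 0.76 and 0.93 against normal lung, and a minimum of 10 counts in every library gave 0.78 and 0.93. With no fold threshold, 31 members were higher and 11 lower in Ly6glow over Ly6ghigh, against 26.1% of all genes higher (55.8% either way). Between the Ly6ghigh groups 2 were then lower, where 84.6% of all genes were called either way. With a threshold of 1, 0 were higher and 2 lower in Ly6glow over Ly6ghigh, against 2.42% of all genes higher (9.25% either way). Between the Ly6ghigh groups 19 were then higher, against 13.5% of all genes (42.6% either way). In Ly6glow over normal lung 1 was then lower, where 50.2% of all genes were called either way. Leaving out 1 replicate gave 1 to 2 members lower in Ly6glow over normal lung, where 1 remained (*Evl*) without Ly6glow replicate 3 or normal lung replicate 1. The log2 difference of the *Arpc1b*/*Arpc1a* ratio between the macrometastatic subsets, -0.0092, ranged from -0.024 to 0.011 when 1 replicate was left out, and was 0.0016 without Ly6glow replicate 2 and 0.011 without Ly6ghigh replicate 2. Replicate numbers did not pair the libraries (r of deviations -0.068 to 0.077 for the same number), and a fit with the number as a block gave 2 higher and 4 lower, 41 and 1, and 42 and 2 calls, as without it. The limma fits differ in test and unit as well as in scaling, and the causes of these changes were not tested.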
